A study of Homo sapiens with 4 samples.

Results

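The 8 genes described here encode variant histones and a linker histone. Among them are the H2A variants H2A.Z (H2AZ1 and H2AZ2) and H2A.X (H2AX) and the H3 variant H3.3 (H3-3A and H3-3B). The others encode the macroH2A proteins (MACROH2A1 and MACROH2A2) and the linker histone H1.10 (H1-10). All 8 were chosen by name as polyadenylated, replication-independent histone genes, although H2AX is also known in a stem-loop form. Each matched 1 of the 64252 Ensembl IDs in the count table by its symbol. The cells were J.gamma1, a line derived from Jurkat T leukaemia cells and known for lacking phospholipase C gamma 1, and all libraries are from this 1 line. Cells received 10 µM FB23-2, known as an inhibitor of the RNA demethylase FTO, for 48 h, against DMSO alone at under 0.1% for 48 h as the control, with 2 independent biological replicates per group.

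Library totals were 37804516 and 33983246 counts with FB23-2, against 24615359 and 34897961 in control. FTO RNA stood at 62.8 and 60.8 CPM (counts of a gene over the TMM-scaled library size) with FB23-2, against 55.9 and 55.9 CPM in control, and did not pass the test (edgeR adjusted p = 0.0738). PLCG1, which encodes the phospholipase that the line is known to lack, was read at 295 and 291 CPM with FB23-2, against 265 and 265 CPM in control, so its RNA was present, and these counts do not check the protein. All 10 T-lineage markers were tested and 7 of them fell, against 20.3% of all tested genes, while CD2, CD28 and TRAT1 did not pass. The 10 together summed to 1399 and 1324 CPM with FB23-2, against 1870 and 1863 CPM in control. B-cell markers summed to 47.8 and 46.1 CPM with FB23-2, against 48.4 and 42.1 CPM in control. Myeloid, erythroid and fibroblast markers each summed to under 5 CPM with FB23-2, and the fibroblast sum was 6.85 and 6.04 CPM in control. CD79A gave most of the B-cell sum, and PAX5 had no counts with FB23-2 or in the first control library.

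In a nucleosome, DNA is wrapped around pairs of H2A, H2B, H3 and H4, and a linker histone sits where the DNA enters and leaves. Most of this protein is made during S phase from clustered genes whose mRNAs have no poly(A) tail and end in a conserved stem-loop that is bound by SLBP. Most variant histones come from single genes that are transcribed through the cell cycle. Dedicated chaperones exchange variants into chromatin: H2A.Z around transcription start sites, H3.3 in transcribed and some repetitive regions, macroH2A over repressed domains. H2A.X is the variant whose tail is phosphorylated around DNA breaks.

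The 3' ends of the annotated transcripts were searched for the histone stem-loop, because it marks the mRNAs made without a poly(A) tail. The search took a stem of 6 pairs that starts with GG, with pyrimidines and a T on its 5' side, around a loop of 4 bases, downstream of the stop codon in GENCODE release 29 transcripts. Of the 8 members, only H2AX held it, from base 50 after the stop codon, in a transcript of 1614 bases that runs on for another 1044 bases. H2AX is known to be made both as a stem-loop form and as a longer polyadenylated form. It was also found in 28 of the 33 replication-dependent histone genes with an annotated 3' untranslated region, and in 35 of 19146 genes in all (0.183%). The annotated length past the stem-loop varied among the replication-dependent genes, such as 390 bases in H2AC25, 1518 in H3C8 and 6 in H4C11. The 3 sequences are written 5' to 3' as DNA, with the stem in capitals and the loop in lower case.
H2AX: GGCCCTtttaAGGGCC
H2AC25: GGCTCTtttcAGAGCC
H3C8: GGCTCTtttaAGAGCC

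The promoters of H2AX, H3-3B, H2AZ2 and H2AZ1 are shown because the first 3 of these genes rose with FB23-2 and the last is the paralog of H2AZ2. MACROH2A1 also rose, by less (log2 fold change 0.13), and its windows are not printed. Windows run from 250 bases before to 50 bases after the start site (RefSeq, GRCh38.p14), written 5' to 3' along the gene, with CCAAT and its reverse complement ATTGG in capitals.
H2AX (chr11:119095416-119095715, minus strand): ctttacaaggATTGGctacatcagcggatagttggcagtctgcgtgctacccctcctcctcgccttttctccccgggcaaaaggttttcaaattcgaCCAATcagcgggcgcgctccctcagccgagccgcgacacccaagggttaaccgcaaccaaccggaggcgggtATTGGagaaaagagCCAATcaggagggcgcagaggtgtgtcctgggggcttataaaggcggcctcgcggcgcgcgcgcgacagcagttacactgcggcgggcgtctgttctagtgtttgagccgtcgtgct
H3-3B (chr17:75779730-75780029, minus strand): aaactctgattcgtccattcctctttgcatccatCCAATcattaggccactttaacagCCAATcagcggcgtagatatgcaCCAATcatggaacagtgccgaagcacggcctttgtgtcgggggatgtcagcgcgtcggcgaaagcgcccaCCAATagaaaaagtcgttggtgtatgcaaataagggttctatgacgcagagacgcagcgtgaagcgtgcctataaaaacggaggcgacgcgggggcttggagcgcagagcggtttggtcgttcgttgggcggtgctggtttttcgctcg
H2AZ2 (chr7:44848038-44848337, minus strand): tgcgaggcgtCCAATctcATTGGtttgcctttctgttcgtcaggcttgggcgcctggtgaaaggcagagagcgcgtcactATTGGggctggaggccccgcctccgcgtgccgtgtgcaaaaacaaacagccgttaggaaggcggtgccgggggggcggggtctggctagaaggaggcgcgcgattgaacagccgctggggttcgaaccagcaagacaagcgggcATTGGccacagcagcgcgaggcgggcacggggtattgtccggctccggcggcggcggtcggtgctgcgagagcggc
H2AZ1 (chr4:99950226-99950525, minus strand): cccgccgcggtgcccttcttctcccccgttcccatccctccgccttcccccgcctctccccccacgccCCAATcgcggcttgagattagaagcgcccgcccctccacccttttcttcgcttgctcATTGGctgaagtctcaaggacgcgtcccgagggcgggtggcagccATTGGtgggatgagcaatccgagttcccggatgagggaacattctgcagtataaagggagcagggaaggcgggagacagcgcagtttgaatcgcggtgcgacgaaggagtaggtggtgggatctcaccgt

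CCAAT, the sequence bound by the factor NF-Y, occurred on either strand 4 times in each of the H2AX, H3-3B and H2AZ2 windows and 3 times in that of H2AZ1. Of 35116 windows of the same length, 34.6% held it at least once, 3.26% at least 3 times and 0.991% at least 4 times. H3-3A has 4 annotated windows with 0 or 1 match each, and H1-10 and MACROH2A2 had none. MACROH2A1, which also rose with FB23-2, has 2 windows with 0 and 2 matches. H2AZ1, with 3 matches, did not pass the test for a change, and no link between matches and fold changes was tested. TATAAA, the TATA box, started 31 bases before the start site in H2AX, H2AZ1 and H1-10 and 29 bases before it in H3-3B, and 11.5% of all windows held it. TTTGAA or TTCGAA, the letters of the cell-cycle CHR element, was found once each in H2AX, H2AZ1 and H2AZ2, against 16.4% of all windows. CACGTG, the E-box bound by MYC and MAX, was in none of the 12 windows of the members and in 7.26% of all windows. These are matches of letters, and no binding was measured.

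**Figure D1:**
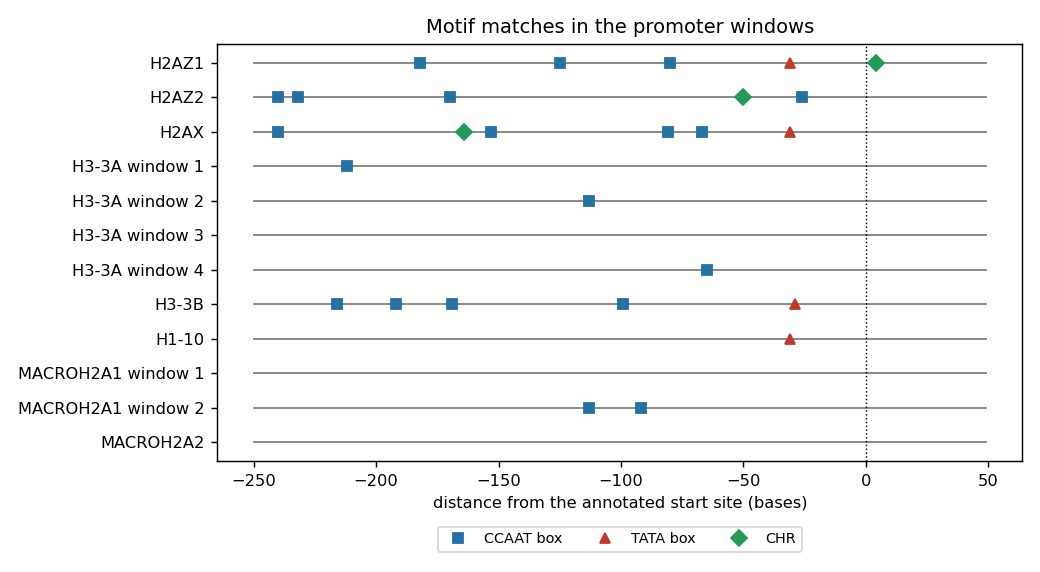
Motif matches in the RefSeq promoter windows of the members, by distance in bases from the annotated start site (dotted line). Squares are CCAAT boxes, triangles TATA boxes and diamonds CHR letters, on either strand. H2AX, H3-3B and H2AZ2 have 4 CCAAT boxes each and H2AZ1 has 3, and no other window has more than 2.

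All 8 members passed the filter on low counts and were tested with edgeR's quasi-likelihood test among 18817 genes, with Benjamini-Hochberg adjustment over all of them and a threshold of 0.05. With FB23-2, 4 members rose (H2AX, H3-3B, H2AZ2 and MACROH2A1), 1 fell (H1-10), and H2AZ1, H3-3A and MACROH2A2 did not pass. Of all tested genes, 21.8% rose, 20.3% fell and 42.1% changed in either direction. With 8 genes set against that background, nothing more is read from the member counts. The median log2 fold change (FB23-2 over control) of the members was 0.06, and 0.00143 over all tested genes. The FB23-2 and control libraries did not overlap for 6 members, all but H2AZ1 and H3-3A, and for 70.8% of all tested genes. H2AX had a log2 fold change above 87.1% of tested genes, H3-3B above 81.5% and H2AZ2 above 77.7%, while H1-10 stood above 26.4%.

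**Figure D2:**
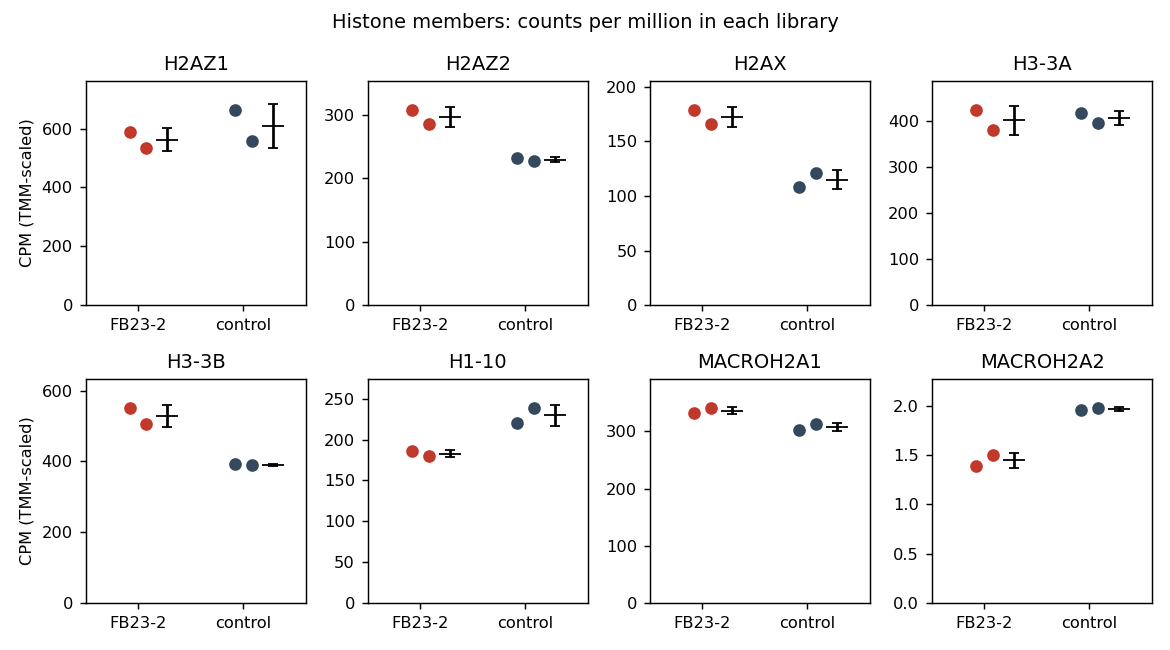
CPM of the 8 members in each library, with the FB23-2 libraries on the left and the control libraries on the right of each panel. Points are libraries, black marks are the mean ± SD (n = 2 per group), and each axis starts at 0. Groups are apart for all members except H2AZ1 and H3-3A.

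**Figure D3:**
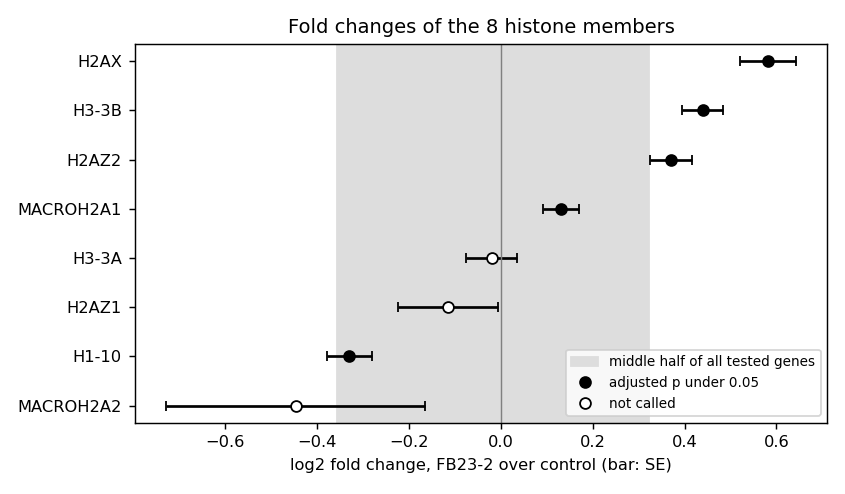
Log2 fold change of each member, FB23-2 over control, with its SE. Filled points passed an adjusted p of 0.05, and the grey band holds the middle 50% of all tested genes, -0.36 to 0.32. H2AX, H3-3B and H2AZ2 lie above the band.

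The H2A.Z genes split. H2AZ2 (ENSG00000105968, chromosome 7, 44826791 to 44848083 of hg38, minus strand) encodes H2A.Z.2, which differs from H2A.Z.1 in a few residues. It was read at 307 and 286 CPM with FB23-2, against 232 and 227 CPM in control. Both FB23-2 libraries were higher than both control libraries, and H2AZ2 rose 1.29-fold (log2 fold change 0.37 ± 0.05 SE, edgeR adjusted p = 1.90e-04). H2AZ1 (ENSG00000164032, chromosome 4, 99948086 to 99950388, minus strand) encodes H2A.Z.1, the form whose loss is lethal in mouse embryos. It was read at 590 and 535 CPM with FB23-2, against 662 and 557 CPM in control. The groups overlapped, the control libraries lay further apart than the FB23-2 ones, and the log2 fold change of -0.12 ± 0.11 SE did not pass (edgeR adjusted p = 0.483). When control replicate 2 was left out, H2AZ1 was called lower (log2 fold change -0.23, edgeR adjusted p = 0.0428, and 0.026 to 0.987 across the alternatives). Exons of H2AZ1 and of the divergent transcript H2AZ1-DT share 9.68% of the H2AZ1 exon bases, and H2AZ1-DT had 15 and 23 counts with FB23-2 and 6 and 0 in control. Counts of both H2A.Z genes together were 897 and 821 CPM with FB23-2, against 895 and 784 CPM in control, a ratio of means of 1.02 (exact two-sided permutation p = 0.667, where 0.333 is the smallest p that 2 libraries against 2 allow).

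H2AX (ENSG00000188486, chromosome 11, 119093854 to 119095467, minus strand) had the highest fold change among the members. It was read at 178 and 166 CPM with FB23-2, against 108.5 and 121 CPM in control. All FB23-2 values were above all control values, and H2AX rose 1.496-fold (log2 fold change 0.58 ± 0.06 SE, edgeR adjusted p = 7.03e-05). Its adjusted p stayed at or under 0.0021 over the 11 alternatives tried. The counts do not separate its stem-loop form from its polyadenylated form. Of 13 tested genes that phosphorylate H2A.X, read the mark or act beside them, 2 rose and 2 fell. Their median log2 fold change was 0.04, and 21.8% of all tested genes rose and 20.3% fell. The kinases PRKDC (480 ± 28.7 CPM with FB23-2, 664 ± 3.50 CPM in control, SD, n = 2 each; log2 fold change -0.47 ± 0.04 SE) and ATR (-0.34 ± 0.06 SE), which place the mark at breaks and stalled forks, fell. The checkpoint kinase gene CHEK2 (0.25 ± 0.07 SE) and the phosphatase gene PPP4C (0.15 ± 0.04 SE) rose. CHEK2 missed the threshold when FB23-2 replicate 2 or control replicate 1 was left out (edgeR adjusted p = 0.0741 and 0.104, and 0.00629 to 0.104 across alternatives). PPP4C missed it when FB23-2 replicate 1 or either control library was left out (edgeR adjusted p = 0.137, 0.149 and 0.0919), with no filter (0.0683) and with upper quartile scaling (0.0634), and had 0.00439 to 0.149 across alternatives. ATM, the main kinase of H2A.X at double-strand breaks, was at 130 ± 18.3 CPM with FB23-2, against 103 ± 7.20 CPM in control (SD, n = 2 each) and did not pass (edgeR adjusted p = 0.0727).

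The H3.3 genes also split, although they encode the same protein. H3-3B (ENSG00000132475, chromosome 17, 75776434 to 75785893, minus strand) was read at 551 and 507 CPM with FB23-2, against 392.3 and 388.5 CPM in control. It rose 1.36-fold, with no overlap between the groups (log2 fold change 0.44 ± 0.05 SE, edgeR adjusted p = 6.22e-05). H3-3A (ENSG00000163041, chromosome 1, 226061851 to 226072001, plus strand) was read at 424 and 380 CPM with FB23-2, against 418.5 and 397 CPM in control. Its groups overlapped, and a log2 fold change of -0.02 ± 0.06 SE did not pass (edgeR adjusted p = 0.806) and changed sign under 4 of the 11 alternatives. H3-3A has near-identical processed copies elsewhere in the genome, and reads can be split between them. H3P6 took 39.6 and 38.4 CPM with FB23-2, against 29.4 and 36.1 CPM in control, and H3P16 took 21.0 and 21.6 CPM with FB23-2, against 15.8 and 21.4 CPM in control. Neither copy passed the test. With the counts of all annotated copies added, the log2 fold change was 0.01 for H3-3A and 0.44 for H3-3B. The summed level of both H3.3 genes was 975 and 887 CPM with FB23-2, against 811 and 786 CPM in control, 1.17 times as high (exact two-sided permutation p = 0.333, the smallest possible).

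The share of each pair that came from 1 gene is a ratio within a library and so does not depend on how libraries are scaled. H3-3B gave 56.5% and 57.2% of the counts of its pair with FB23-2, against 48.4% and 49.45% in control. H2AZ2 gave 34.25% and 34.8% of the counts of its pair with FB23-2, against 25.95% and 28.98% in control. In both pairs every FB23-2 library was above every control library. The log2 ratio of H3-3B to H3-3A averaged 0.40 ± 0.03 with FB23-2 and -0.06 ± 0.04 in control (SD, n = 2 each), a difference of 0.46. That of H2AZ2 to H2AZ1 averaged -0.92 ± 0.03 with FB23-2 and -1.40 ± 0.16 in control (SD, n = 2 each), a difference of 0.48. Each difference exceeded the spread between replicates, and each had an exact two-sided permutation p of 0.333, the smallest that this design allows, so that it cannot pass 0.05. With the counts of annotated copies added to their parents the differences were 0.43 and 0.48. These shares are of counts and are not corrected for the different lengths of the transcripts.

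**Figure D4:**
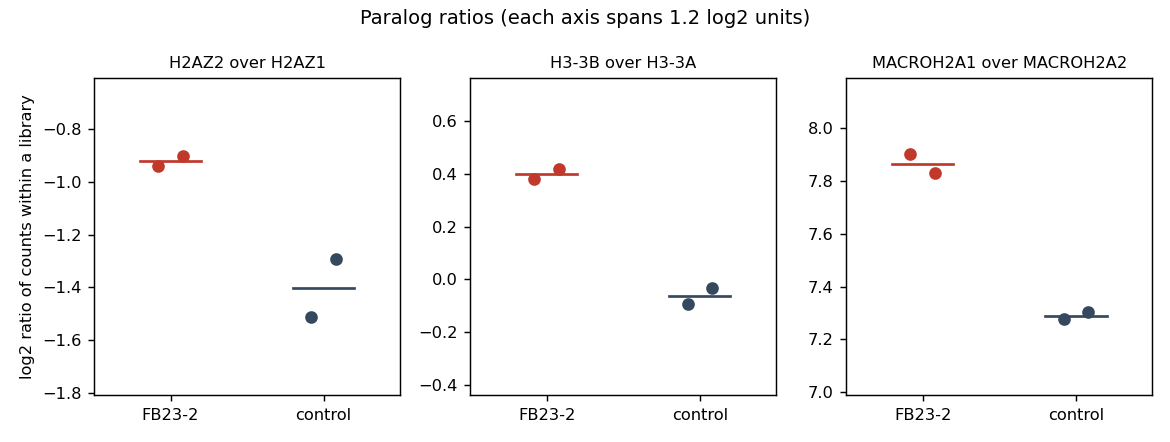
Log2 ratio of counts within each library for the 3 paralog pairs, with the FB23-2 libraries on the left and the control libraries on the right. Points are libraries, lines are group means, and each axis spans 1.2 log2 units. The FB23-2 libraries lie above the control libraries in each pair, by 0.48, 0.46 and 0.58 on average. The last value rests on 47 to 68 counts of MACROH2A2 per library, a gene whose own fold change did not pass.

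The linker histone gene H1-10 (ENSG00000184897, chromosome 3, 129314771 to 129316277, minus strand) was the member that fell. H1.10 is a divergent linker histone made from a single-exon gene. It was read at 186 and 180 CPM with FB23-2, against 221 and 238.6 CPM in control. No FB23-2 library reached a control library, and the level was 0.796 times that of control (log2 fold change -0.33 ± 0.05 SE, edgeR adjusted p = 5.48e-04). An antisense gene, H1-10-AS1, covers 22.9% of its exon bases and had 1 and 2 counts with FB23-2 and 1 and 12 in control. H1-2 was the only replication-dependent linker histone gene tested, at 44 and 46 counts with FB23-2 and 44 and 47 in control.

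MacroH2A proteins carry a large globular macro domain behind their histone fold. MACROH2A1 (ENSG00000113648, chromosome 5, 135333900 to 135399914, minus strand) was read at 332 and 341 CPM with FB23-2, against 302 and 312 CPM in control. The groups did not overlap, and it rose 1.09-fold (log2 fold change 0.13 ± 0.04 SE, edgeR adjusted p = 0.0238). The call was lost when any 1 library was left out, with adjusted p values of 0.0636 and 0.0927 without FB23-2 replicates 1 and 2 and of 0.266 and 0.0784 without control replicates 1 and 2. It was also lost with no filter (edgeR adjusted p = 0.0643) and with upper quartile scaling (0.0987), and the adjusted p was 0.00592 to 0.266 across the alternatives. PITX1-AS1, on the opposite strand, shares 28.02% of its exon bases and had 42 and 53 counts with FB23-2 and 19 and 42 in control. MACROH2A2 (ENSG00000099284, chromosome 10, 70052796 to 70112280, plus strand) was close to silent, with 53 and 52 counts with FB23-2 and 47 and 68 in control. That is 1.39 and 1.499 CPM with FB23-2, against 1.95 and 1.98 CPM in control. The groups did not overlap, but a log2 fold change of -0.45 ± 0.28 SE did not pass (edgeR adjusted p = 0.242). MACROH2A1 gave 99.6% of the counts of the pair in both FB23-2 libraries and 99.4% in both control libraries. Of 6 tested partners of macroH2A, ATRX alone passed, as given with the H3.3 factors below, against 42.1% of all tested genes. The poly-ADP-ribose polymerase gene PARP1 was at 341 ± 2.84 CPM with FB23-2, against 356 ± 4.25 CPM in control (SD, n = 2 each). PARP1 did not pass (edgeR adjusted p = 0.215).

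Levels between members were compared per kilobase of exon sequence of coding transcripts. On this scale H2AZ1 was highest in both groups, at 574 ± 39.8 CPM per kilobase with FB23-2 and 623 ± 76.4 in control (SD, n = 2 each), above 99.6% of the 17538 tested genes with a length. H3-3B stood at 181 ± 10.6 with FB23-2 and 133 ± 0.906 in control, and H3-3A at 128 ± 9.82 with FB23-2 and 130 ± 4.79 in control. H1-10 was at 121 ± 2.89 with FB23-2 and 152 ± 8.42 in control, MACROH2A1 at 112 ± 2.07 with FB23-2 and 102 ± 2.36 in control, and H2AX at 107 ± 5.58 with FB23-2 and 71.0 ± 5.41 in control. H2AZ2 was at 62.4 ± 3.19 with FB23-2 and 48.4 ± 0.741 in control, and MACROH2A2 was lowest, at 0.729 ± 0.04 with FB23-2 and 0.991 ± 0.00877 in control. The order depends on the length taken: with the median coding transcript in place of all coding exons, H2AZ2 was at 451 with FB23-2 and 350 in control, H3-3B at 779 ± 45.7 with FB23-2 and 575 ± 3.91 in control, and H3-3B was above H2AZ1 with FB23-2. H3-3A was then at 335.5 ± 25.8 with FB23-2 and 340.5 ± 12.6 in control (SD, n = 2 each), below H3-3B in both groups, whereas over all coding exons they differed in control by less than the SD of H3-3A. The members' fold changes do not depend on that choice.

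Of 18 other variant histone genes looked up, 8 had no counts and 2 were tested. Of these 2, 1 rose, as did 21.8% of all tested genes. CENPA, which encodes the H3 variant of centromeres, was read at 56.1 and 55.2 CPM with FB23-2, against 45.7 and 43.7 CPM in control, and rose 1.25-fold (log2 fold change 0.32 ± 0.06 SE, edgeR adjusted p = 0.00287). H2AJ, an H2A variant known in ageing cells, had 5 and 6 counts with FB23-2 and 2 and 7 in control, and the intronless H3-5 had 5 and 1 with FB23-2 and 3 and 6 in control.

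Replication-dependent histone genes were close to absent from these libraries. All 65 of them summed to 16.1 and 18.0 CPM with FB23-2, against 19.6 and 15.9 CPM in control, and 10 had no counts. The 20 tested were each under 5 CPM, with a median log2 fold change of -0.26. Of them, 2 rose and 2 fell, against 21.8% and 20.3% of all tested genes. These 4 were named after their values were seen. H3C8 had 31 and 40 counts with FB23-2 against 2 and 9 in control, and H2BC15 had 29 and 33 with FB23-2 against 6 and 10 in control. H2AC25 had 9 and 8 counts with FB23-2 against 50 and 48 in control, and H2BC12 had 9 and 21 with FB23-2 against 34 and 32 in control. When 1 library was left out, 0 or 1 of the 20 were called higher and 1 to 3 lower. Near-identical members of these families can share reads. The labels name an Illumina TruSeq RNA kit and do not say whether RNA was selected by its poly(A) tail, so these counts are no measure of the levels of tailless histone mRNA.

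Of 14 tested genes that process or drive those mRNAs, 2 rose and 2 fell, against 21.8% and 20.3% of all tested genes. Their median log2 fold change was -0.05. NPAT, the activator of the replication-dependent histone genes, stood at 81.0 ± 4.76 CPM with FB23-2, against 60.2 ± 0.336 CPM in control (SD, n = 2 each; log2 fold change 0.43 ± 0.06 SE). ERI1, an exonuclease that trims the stem-loop end, rose as well (0.27 ± 0.05 SE). The 3' end cleavage factors CPSF3 (-0.23 ± 0.06 SE) and CPSF2 (-0.21 ± 0.04 SE) fell. CPSF3 missed the threshold when FB23-2 replicate 1 or control replicate 2 was left out (edgeR adjusted p = 0.0729 and 0.134, and 0.00584 to 0.134 across alternatives). SLBP, the stem-loop binding protein, was at 203 ± 1.49 CPM with FB23-2, against 195 ± 6.78 CPM in control (SD, n = 2 each) and did not pass (edgeR adjusted p = 0.362).

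The chaperones that deposit the variants moved in both directions. The list for H3.3 deposition also takes in the H3-H4 chaperones ASF1A and ASF1B. Of its 8 tested genes, 3 rose and 1 fell, against 21.8% and 20.3% of all tested genes. Their median log2 fold change was 0.05. HIRA, the subunit that gives its name to the complex that places H3.3 in transcribed genes, was read at 47.4 and 46.8 CPM with FB23-2, against 105 and 116 CPM in control. It fell to 0.425 times the control level (log2 fold change -1.24 ± 0.06 SE, edgeR adjusted p = 1.25e-06), and no alternative gave an adjusted p above 1.35e-04. Its partners UBN1 (143 ± 2.15 CPM with FB23-2, against 143 ± 6.56 CPM in control) and CABIN1 (157 ± 4.44 CPM with FB23-2, against 156 ± 0.969 CPM in control, SD, n = 2 each) did not pass. UBN2 rose (0.18 ± 0.06 SE, edgeR adjusted p = 0.0425), a call that was lost under 8 of the 11 alternatives. These were each library left out (0.0517 to 0.307), no filter (edgeR adjusted p = 0.1), DESeq2 size factors (0.0508), upper quartile scaling (0.105) and the DESeq2 test (0.0707), and the adjusted p was 0.017 to 0.307 across all 11. ASF1B, the H3-H4 chaperone paralog of dividing cells, was read at 180 and 157 CPM with FB23-2, against 104 and 99.2 CPM in control, and rose 1.66-fold (0.73 ± 0.07 SE, edgeR adjusted p = 4.04e-05). ASF1A did not pass (0.08 ± 0.05 SE, edgeR adjusted p = 0.195). ATRX, the remodeler that places H3.3 at repeats together with DAXX, rose (0.22 ± 0.05 SE) but not without control replicate 1 (edgeR adjusted p = 0.0927, and 0.00171 to 0.0927 across alternatives). DAXX was at 23.5 ± 1.21 CPM with FB23-2, against 27.3 ± 1.26 CPM in control (SD, n = 2 each) and did not pass.

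Of 14 genes that exchange H2A.Z, 5 rose and 5 fell, against 21.8% and 20.3% of all tested genes. Their median log2 fold change was -0.00316. DMAP1 (0.41 ± 0.06 SE) and VPS72 (0.33 ± 0.06 SE), subunits of both the SRCAP and the TIP60/EP400 complexes, rose, and VPS72 binds the H2A.Z-H2B dimer. BRD8 (0.36 ± 0.05 SE) and the acetyltransferase KAT5 (0.23 ± 0.06 SE), subunits of TIP60/EP400, rose as well, and so did ACTL6A (0.21 ± 0.04 SE). EP400 itself fell (-0.30 ± 0.06 SE), as did INO80 (-0.48 ± 0.08 SE) and ZNHIT1 (-0.19 ± 0.06 SE). The calls of ACTL6A, EP400, INO80 and ZNHIT1 were not followed gene by gene under the alternatives. KAT5 missed the threshold when replicate 1 of either group was left out (edgeR adjusted p = 0.0529 for FB23-2 and 0.0632 for control, and 0.00296 to 0.0632 across alternatives). The ATPases RUVBL1 (46.2 ± 2.09 CPM with FB23-2, 78.4 ± 1.06 CPM in control, SD, n = 2 each; -0.76 ± 0.06 SE) and RUVBL2 (-0.55 ± 0.05 SE), which serve many other complexes too, fell. SRCAP, the main H2A.Z exchange ATPase, was at 167 ± 4.69 CPM with FB23-2, against 177 ± 1.68 CPM in control (SD, n = 2 each), and ANP32E, which removes H2A.Z, was at 407 ± 13.6 CPM with FB23-2, against 408 ± 0.556 CPM in control. Neither passed (edgeR adjusted p = 0.151 and 0.947).

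Of 6 tested genes for CENP-A deposition, 5 rose and 1 fell, against 21.8% and 20.3% of all tested genes. Their median log2 fold change was 0.41, and no list was tested as a set. The CENP-A chaperone HJURP was at 179 ± 2.14 CPM with FB23-2, against 126 ± 0.261 CPM in control (SD, n = 2 each; 0.51 ± 0.04 SE). OIP5 (0.47 ± 0.11 SE) and CENPN (0.45 ± 0.05 SE) also rose, and MIS18A fell (-0.25 ± 0.08 SE). OIP5 missed the threshold when replicate 1 of either group was left out (edgeR adjusted p = 0.0607 for FB23-2 and 0.0536 for control, and 0.00363 to 0.0607 across alternatives). MIS18A missed it when FB23-2 replicate 2 or either control library was left out (edgeR adjusted p = 0.189, 0.142 and 0.081), with no filter (0.122) and with library totals alone (0.0602), and had 0.00503 to 0.189 across alternatives. Without control replicate 1, 3 genes of this list were called higher and 0 lower.

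Of 16 tested general and replication-coupled histone chaperones, 7 fell and 1 rose, against 20.3% and 21.8% of all tested genes. Their median log2 fold change was -0.14. Among the called genes NPM1, a nucleolar histone chaperone, fell most (-1.09 ± 0.04 SE), followed by MCM2, a helicase subunit that also binds H3-H4 (189 ± 3.11 CPM with FB23-2, 317 ± 7.98 CPM in control, SD, n = 2 each; -0.75 ± 0.04 SE). SSRP1, a subunit of the FACT chaperone (-0.42 ± 0.04 SE), and the H2A-H2B chaperone NAP1L1 (-0.37 ± 0.04 SE) fell as well. IPO4 had a lower log2 fold change than NPM1 (-1.39 ± 0.48 SE) but did not pass (edgeR adjusted p = 0.154). It was read at 22.8 and 20.3 CPM with FB23-2, against 75.8 and 39.8 CPM in control. HAT1, which acetylates new H4, rose (0.26 ± 0.05 SE), but not without control replicate 1 (edgeR adjusted p = 0.0569, and 0.00133 to 0.0569 across alternatives). The chromatin assembly factor genes CHAF1A (150 ± 3.98 CPM with FB23-2, 150 ± 1.83 CPM in control) and CHAF1B (70.1 ± 1.28 CPM with FB23-2, 78.5 ± 4.38 CPM in control, SD, n = 2 each) did not pass.

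**Figure D5:**
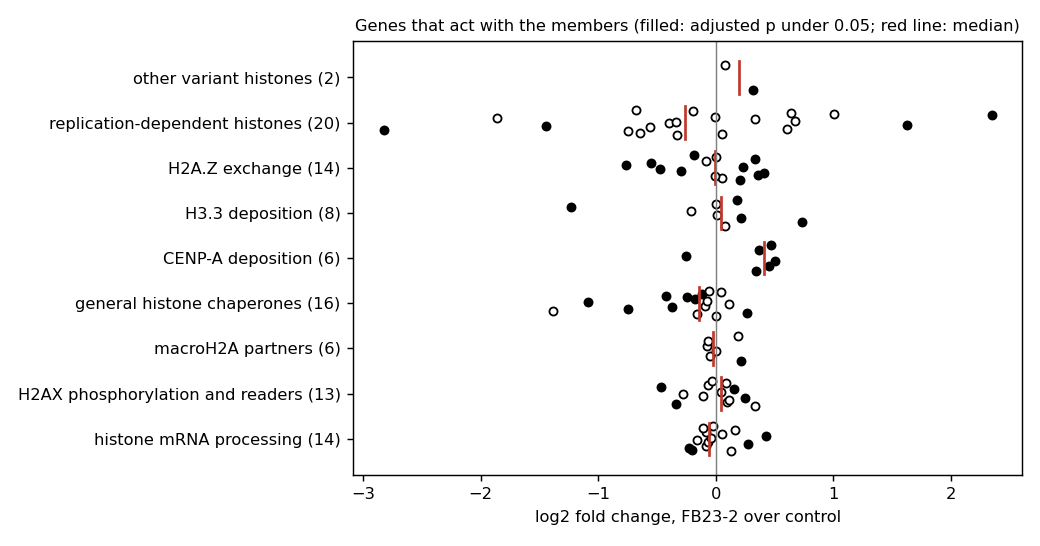
Log2 fold change, FB23-2 over control, of each tested gene in the lists of other histones, chaperones, processing factors and signalling genes, with the number tested in brackets. Filled points passed an adjusted p of 0.05 and red lines are list medians. HIRA, at -1.24, and NPM1, at -1.09, are the lowest called genes outside the replication-dependent histones.

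Among 5 markers of proliferation, TOP2A (1430 and 1442 CPM with FB23-2, 795 and 819 CPM in control), MKI67 (1541 and 1665 CPM with FB23-2, 1033 and 1031 CPM in control) and CCNE2 (97.4 and 93.6 CPM with FB23-2, 62.1 and 63.7 CPM in control) rose. PCNA (297 and 280 CPM with FB23-2, 332 and 339 CPM in control) and CCNB1 (133 and 128 CPM with FB23-2, 180 and 171 CPM in control) fell. In the same libraries H2AX, CENPA, HJURP and ASF1B rose, MCM2, SSRP1 and MIS18A fell, and CHAF1A, CHAF1B and SLBP did not pass. The part of the cell cycle in these results was not tested. In such bulk samples, a change in the RNA of each cell and a change in the mix of cells cannot be told apart.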

How the data were processed

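The authors deposited 1 table of whole-number counts per Ensembl gene, with no normalization. HISAT2 2.2.0, StringTie and hg38 are named in the submitters' processing notes, while the sources used here give no annotation, strand setting or counting step. Reads from the opposite strands of 1 locus may therefore be mixed. Per the labels' protocols, total RNA was taken with Trizol and made into libraries with a TruSeq RNA kit. The members and the gene lists were chosen with earlier results of these data known.

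Symbols came from a table of gene names, which covered 56105 of 64252 IDs, or else from GENCODE release 29 on the same build (56591 IDs). Of the listed companion symbols, 2 older names were not found. Genes were kept by filterByExpr (minimum count 10), scaled by TMM and tested with the quasi-likelihood test of edgeR 4.0.16 in R 4.3.3 (group only), with Benjamini-Hochberg adjustment over 18817 genes. The SE is the absolute log2 fold change over the square root of F. The common biological coefficient of variation was 10.5%. The script was tested on simulated data. Between replicates, chi-square per degree of freedom over genes with 20 or more counts was 6.69 and 7.48, against 74.6 to 82.3 between groups. Library totals make 3 counts 0.0794 to 0.122 CPM, a floor that covers counting error only.

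Named genes were all members and, from each list, up to 4 called genes with the largest change at a mean of 5 CPM or more in the direction with more calls and up to 2 in the other. Some genes that the rule takes in are not reported here. Unchanged genes of known function, the low replication-dependent genes and ACTL6A, EP400, INO80 and ZNHIT1 were named outside this rule, after their values were seen. Alternatives were no filter, other scalings, DESeq2 1.42.0, each library left out, a replicate block and added pseudogene counts.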

Additional observations from a re-analysis of the deposited data

How the results depend on the processing

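Directions and calls of H2AX, H3-3B, H2AZ2 and H1-10 held under all 11 alternatives, and MACROH2A2 stayed uncalled under all of them. With library totals alone the median log2 fold change of all tested genes was 0.05, and with upper quartile scaling -0.04, so no scaling moved it by over 0.1. MACROH2A1 lost its call with no filter (log2 fold change 0.13, adjusted p = 0.0643), with upper quartile scaling (0.0907, adjusted p = 0.0987) and with each library left out (log2 fold change 0.0918 to 0.158). H3-3A, never called, changed sign with library totals alone (0.0271), with pseudogene counts added (0.00916), and with FB23-2 replicate 2 or control replicate 1 left out, in leave-one-out values from -0.12 to 0.0591. H2AZ1 was called lower when control replicate 2 was left out, and its leave-one-out log2 fold change ran from -0.23 to -0.00199. With 1 library left out, 1 to 2 members were lower and 3 higher, and with no filter or upper quartile scaling 3 were higher.

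Replicate numbers are shared between groups, but the labels tie no pair together, and the deviations of same-numbered libraries correlated at 0.0623 across genes, so the block was no part of the test used. With the replicate block, 4 members were higher and 2 lower, since H2AZ1 was called at a log2 fold change of -0.11 (adjusted p = 0.026). The block changed no other call among the 8 members. The numbers of all genes called stayed within 1.5 times under the alternatives. Of 198 recounts of the companion lists, 34 moved by more than 1.5 times, all of them counts of 5 or fewer. The paralog ratio differences ran from 0.371 to 0.591 (H2AZ2 over H2AZ1), 0.43 to 0.491 (H3-3B over H3-3A) and 0.54 to 0.614 (MACROH2A1 over MACROH2A2) with 1 library left out. Low counts limit what can be read for MACROH2A2 and the replication-dependent histones, at under 5 CPM each.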
